A study of Mus musculus with 6 samples.

Results

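Heterotrimeric G protein alpha subunits were followed in RNA sequencing libraries of cultured mouse ovary. The 10 genes Gna12, Gna13, Gnaq, Gna11, Gnai1, Gnai2, Gnai3, Gnas, Gnao1 and Gnaz were taken by symbol from the 26329 genes of the deposited FPKM table (fragments per kilobase of gene, scaled to library size). All 10 were in the table, and all had a mean of at least 1 FPKM, the minimum for the test. Gna12 drew attention to the family because its difference between the groups had the fifth smallest p among genes lower in ISRIB, so the differences of the members are given as values with intervals and are not used as evidence. The 3 Control libraries came from mouse ovaries cultured with the solvent DMSO, and the 3 ISRIB libraries from ovaries cultured with ISRIB in DMSO. ISRIB is a small molecule that acts on the initiation factor eIF2B and relieves the brake on translation set by the integrated stress response. The study's title concerns the activation of primordial follicles by inhibition of that response, through mTOR. The design text names ICR mice for an arm with injections. For the cultured ovaries, the sources used here do not give strain, age, dose, length of culture or pooling of animals. Nor do they say whether replicates came from separate animals, so p-values measure only the spread between these libraries, which may be technical.

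G protein alpha subunits bind GTP when a membrane receptor is activated, part from the beta and gamma subunits, and switch on an effector until the GTP is hydrolysed. The family has 4 classes. Gs stimulates adenylyl cyclase and raises cyclic AMP, Gi inhibits that enzyme and forms a class with its relatives Go and Gz, Gq and G11 activate phospholipase C beta, and G12 and G13 activate exchange factors for the small GTPase RhoA. In the mouse ovary the best known roles are those of Gs, which carries the signal of the gonadotropin receptors in follicle cells and, downstream of the receptor GPR3, holds the oocyte in meiotic arrest.

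The extreme C terminus of an alpha subunit enters the activated receptor and carries much of the specificity for it, so the last coding bases are given here. They compare the genes and not the proteins, since a base can differ without a change of amino acid. The last 36 coding bases, stop codon included, were read from the GENCODE M21 transcripts (GRCm38, the same build as mm10). For Gna12 they lie at chr5:140760549-140760584 on the minus strand, and for Gna13 at chr11:109396451-109396486 on the plus strand. Capitals in Gna13 mark bases that differ from Gna12, and 29 of 36 are identical.
Gna12: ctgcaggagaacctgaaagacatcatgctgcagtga
Gna13: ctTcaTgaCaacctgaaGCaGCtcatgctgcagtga

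For Gnaq they lie at chr19:16383359-16383394 on the plus strand and for Gna11 at chr10:81530795-81530830 on the minus strand. Capitals in Gna11 mark differences from Gnaq, with 33 of 36 bases identical. None of these differences changes an encoded amino acid.
Gnaq: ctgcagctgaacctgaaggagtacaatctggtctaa
Gna11: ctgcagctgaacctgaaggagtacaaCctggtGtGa

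For the Gi genes the ends lie at chr9:107615635-107615670 (Gnai2), chr5:18267019-18267054 (Gnai1) and chr3:108109422-108109457 (Gnai3), all on the minus strand. Capitals mark differences from Gnai2, with 30 identical bases in Gnai1 and 27 in Gnai3. The differences in Gnai1 leave the encoded amino acids unchanged, and some of those in Gnai3 do not. For Gnas the end lies at chr2:174346353-174346388 on the plus strand and has no paralog of its own class among the members to be compared with.
Gnai2: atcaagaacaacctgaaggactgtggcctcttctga
Gnai1: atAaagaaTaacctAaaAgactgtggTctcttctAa
Gnai3: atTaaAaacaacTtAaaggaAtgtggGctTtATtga
Gnas: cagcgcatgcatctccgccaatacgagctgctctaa

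Over the whole coding sequence Gna12 and Gna13 were identical at 68.8% of aligned bases, and Gna12 with the other 8 members at 57.9% to 61.6%. Gnaq and Gna11 shared 80.5%, and Gnai1 shared 78.7% with Gnai2 and 78.2% with Gnai3. No stretch of 50 bases was common to the transcripts of any pair of members (0 shared 50-mers), so at that length a read of one member does not match another.

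Gna12 (chromosome 5, 140758408 to 140830431, minus strand) codes for G alpha 12, which couples receptors for lysophosphatidic acid, sphingosine 1-phosphate and thrombin to RhoA. It measured 83.1, 84.2 and 84.0 FPKM in Control replicates 1 to 3 and 70.1, 69.0 and 69.7 FPKM in ISRIB replicates 1 to 3. The ISRIB libraries lay below the Control libraries without overlap, and within each group the values were nearly the same. The means were 83.8 ± 0.598 FPKM in Control and 69.6 ± 0.562 in ISRIB (SD, n = 3 each), a level 16.9% lower, with a log2 difference on the log2(FPKM + 0.5) scale of −0.27 (SE 0.0354, 95% interval −0.35 to −0.18). In reads worked back from the FPKM the Control values stood for 5450, 6078 and 6076, and the ISRIB values for 4796, 4836 and 4735. The spread of Gna12 within groups, 0.714% of the mean in Control and 0.808% in ISRIB, was smaller than the 1.37% that counting this many reads gives alone. The SD of 3 libraries is therefore a low estimate of the error of each value.

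Gna13 (chromosome 11, 109362831 to 109401369, plus strand), the other member of the class, codes for G alpha 13, which acts on the same exchange factors and is needed for blood vessel formation in mouse embryos. Its values were 17.0, 17.7 and 18.6 FPKM in Control and 18.5, 16.7 and 18.0 in ISRIB. The groups overlapped over nearly their whole range, with a log2 difference of −0.01 (95% interval −0.14 to 0.13). Within each library the FPKM of Gna12 was 4.87, 4.74 and 4.52 times that of Gna13 in Control and 3.78, 4.13 and 3.88 times in ISRIB. The ratio was lower in all 3 ISRIB libraries than in any Control library, and the 2 genes summed to 100.1 to 102.6 FPKM in Control and 85.7 to 88.6 in ISRIB.

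**Figure D1:**
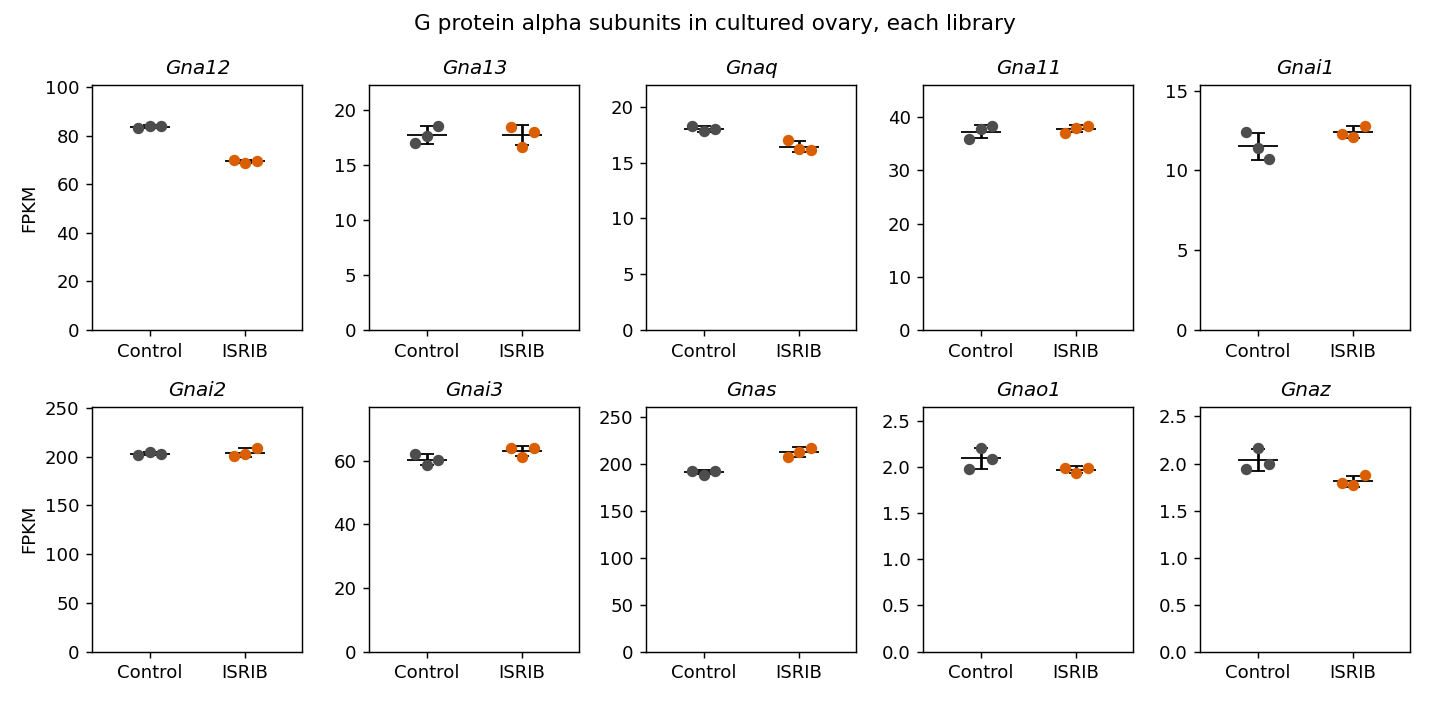
FPKM of the 10 alpha subunit genes in each library, one panel per gene with its own axis starting at 0; points are the 3 Control (grey) and 3 ISRIB (orange) libraries in replicate order, the horizontal mark is the mean and the bar the SD. Gna12, at 83.8 FPKM in Control and 69.6 in ISRIB, has the widest gap relative to its spread. That spread is smaller than counting its reads gives alone, and Gna12 was picked for its small p. Its closest paralog Gna13 is at 17.8 and 17.7 FPKM.

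Gnaq (chromosome 19, 16132831 to 16387463, plus strand) and Gna11 (chromosome 10, 81528724 to 81545190, minus strand) code for the alpha subunits that switch on phospholipase C beta. Gnaq measured 18.3, 17.8 and 18.0 FPKM in Control and 17.0, 16.2 and 16.1 in ISRIB. All ISRIB values of Gnaq were below all Control values, with a log2 difference of −0.13 (SE 0.0466, 95% interval −0.24 to −0.02). Gna11 measured 35.9, 37.7 and 38.3 FPKM in Control and 37.1, 38.0 and 38.4 in ISRIB. Its groups overlapped and its log2 difference was 0.02 (95% interval −0.08 to 0.12). The ratio of Gnaq to Gna11 was 0.470 to 0.510 in Control and 0.420 to 0.459 in ISRIB, without overlap. These ratios describe the libraries, and their difference between the groups was not tested.

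Gnas (chromosome 2, 174284320 to 174346744, plus strand) codes for Gs alpha and, from upstream first exons, for other imprinted transcripts. It measured 192.8, 188.7 and 192.6 FPKM in Control and 207.4, 213.2 and 217.6 in ISRIB. All ISRIB values were above all Control values, the only member for which this held, and the mean was 11.2% higher (log2 difference 0.15, SE 0.0375, 95% interval 0.07 to 0.24). The table gives 1 value for the whole locus, so Gs alpha and the upstream transcripts cannot be told apart. The size of the difference depended on scaling, at 0.10 after TPM rescaling (every library brought to the same summed FPKM), 0.08 after quantile normalization and 0.20 after removal of a trend with gene length.

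The 3 Gi genes, whose proteins inhibit adenylyl cyclase, had overlapping groups. Gnai2 (chromosome 9, 107614125 to 107635367, minus strand) was the most abundant of them, at 202.2, 205.0 and 202.7 FPKM in Control and 200.5, 202.9 and 209.5 in ISRIB. Its log2 difference was 0.01 (95% interval −0.08 to 0.09), and −0.08 after quantile normalization. Gnai3 (chromosome 3, 108107280 to 108146146, minus strand) had 62.2, 58.6 and 60.1 FPKM in Control and 64.1, 61.2 and 63.8 in ISRIB, a log2 difference of 0.06 (95% interval −0.03 to 0.16). Gnai1 (chromosome 5, 18265135 to 18360355, minus strand) had 12.4, 11.4 and 10.7 FPKM in Control and 12.3, 12.1 and 12.8 in ISRIB, with a log2 difference of 0.11 (95% interval −0.04 to 0.25). For both, the highest Control library, replicate 1, reached into the ISRIB range.

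Gnao1 and Gnaz were the rarest members. Gnao1 (chromosome 8, 93809966 to 93969388, plus strand) codes for Go alpha, which is most abundant in neurons, and had 1.98, 2.21 and 2.09 FPKM in Control and 1.99, 1.93 and 1.99 in ISRIB (log2 difference −0.07, 95% interval −0.27 to 0.13). Gnaz (chromosome 10, 74967177 to 75016907, plus strand) codes for Gz alpha, a Gi relative that pertussis toxin does not block. It had 1.94, 2.17 and 2.0 FPKM in Control and 1.79, 1.77 and 1.88 in ISRIB, so that its ISRIB values were all below its Control values by a narrow gap. Its interval was wide (log2 difference −0.13, 95% interval −0.34 to 0.08), and its 345 to 440 reads per library carry a counting error of 5.15%. Of the 8 neuronal markers, Snap25, Rbfox3 and Elavl4 were near 0, with highest values of 0.307, 0.0570 and 0.296 FPKM, and Stmn2 reached 0.662. Syt1 was at 1.36 to 1.87 FPKM, near the level of Gnao1, Elavl3 at 0.819 to 1.24 and Nefl at 0.405 to 1.59. The summed level of the 8 neuronal markers was 10.2 to 15.7 FPKM in Control and 10.4 to 11.4 in ISRIB. Most of that sum was Tubb3 (7.95 and 7.22 FPKM), a tubulin that other cells also use.

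**Figure D2:**
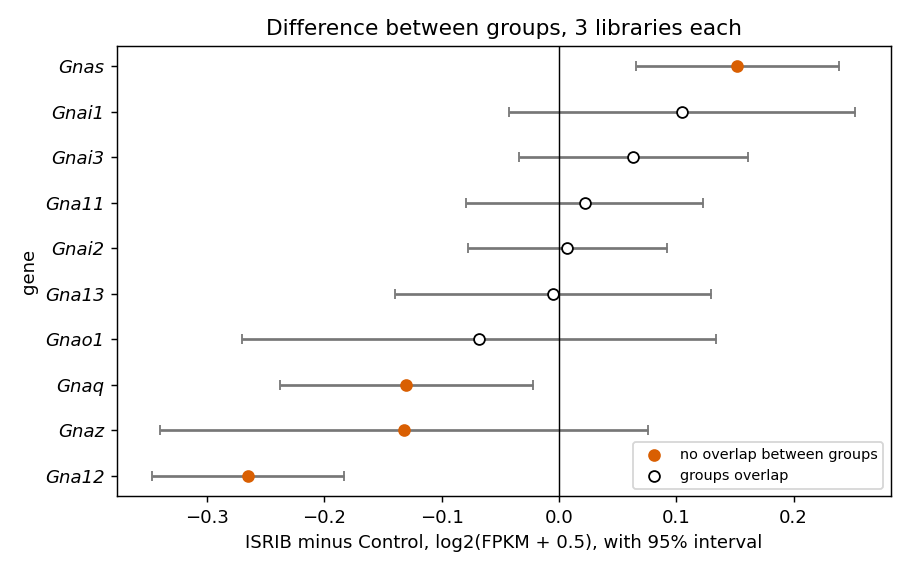
Difference between ISRIB and Control for each gene on the log2(FPKM + 0.5) scale (horizontal axis) with its 95% interval from limma, for 3 libraries per group; filled points are genes whose groups do not overlap. Gna12 (−0.27) stands lowest and Gnas (0.15) highest, and 6 of the 10 genes have overlapping groups with differences of −0.07 to 0.11.

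Across the 10 members, 5 were higher and 5 lower in ISRIB, with a median log2 difference of 0.00, against a median of 0.01 over all 12922 genes tested. Of all tested genes 48.2% were lower, and 64% after TPM rescaling, which moved their median to −0.05. The groups did not overlap for 4 members, 1 with ISRIB above Control and 3 below. Over all genes tested the groups did not overlap for 22.8%, with ISRIB above for 10.8% and below for 12%. By limma's adjusted p (Benjamini-Hochberg, under 0.05) 0 members and 0% of all genes were called. An unadjusted p under 0.05 was found for 1 higher member, Gnas (8.71% of all genes), and 2 lower ones, Gna12 and Gnaq (7.73%), together 3 (16.4%). When voom was run on recovered reads, 1 member, Gna12, was among the called genes (0.929% of those tested), and likewise with array weights (0.124%). Nothing is read from these counts, since Gna12 was picked from this same comparison.

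The summed level of the 10 genes was 625.5 to 629.1 FPKM in Control and 630.8 to 649.8 in ISRIB. The sum was slightly higher in every ISRIB library, but after TPM rescaling it was 1851.4 to 1884.3 in Control and 1812.1 to 1855.8 in ISRIB, so its direction depends on the scaling. The G12/13 class made up 16.2% ± 0.205 of the sum in Control and 13.7% ± 0.308 in ISRIB, and Gnas 30.5% ± 0.288 and 33.3% ± 0.417 (SD, n = 3 each). The Gi genes made up 43.8% in both groups. These shares depend on the gene lengths behind the FPKM. The shares over other lengths divide the same recovered reads, which were counted on gene models not given here, so those lengths may not match the bases counted. Over all exonic bases of GENCODE M21 the G12/13 class made up 14.1% in Control and 12.1% in ISRIB, and over the longest transcripts 7.98% and 6.69%. Gnas made up 31.1% and 33.8% over all exonic bases and 49.5% and 52.4% over the longest transcripts. With each length the groups did not overlap for G12/13 or for Gnas. The Gi genes made up 42.6% in both groups over all exonic bases. Over the longest transcripts they made up 34.5% in Control and 33.5% in ISRIB, without overlap. In bulk tissue a lower level can mean fewer cells that use a gene or less of its RNA per cell, and these cannot be told apart here.

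**Figure D3:**
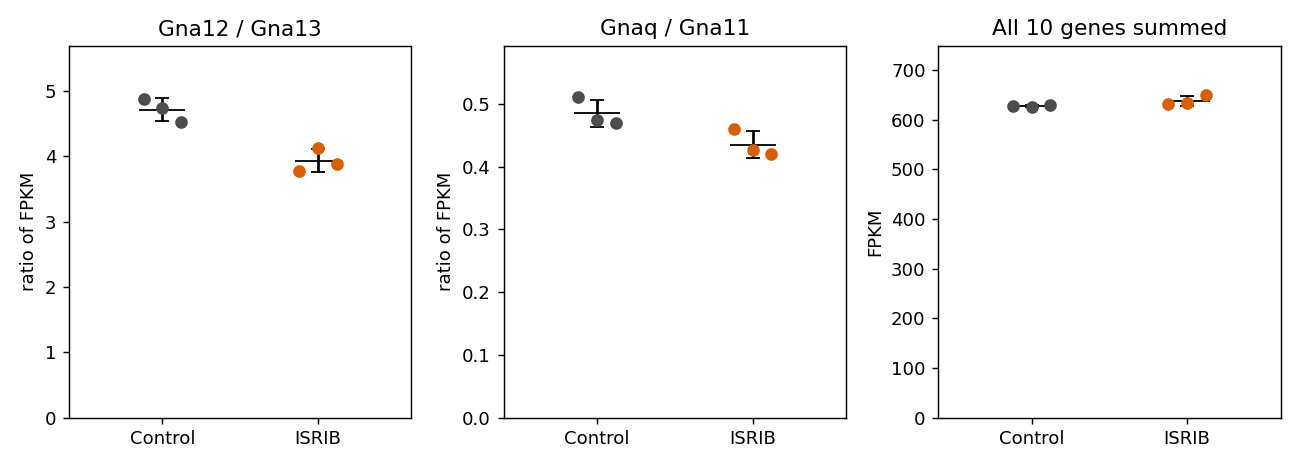
Ratio of Gna12 to Gna13 FPKM (left), ratio of Gnaq to Gna11 FPKM (middle) and summed FPKM of the 10 genes (right) in each library, with axes starting at 0; points are libraries, marks the mean and bars the SD of 3. The first ratio is 4.52 to 4.87 in Control and 3.78 to 4.13 in ISRIB, and the sum stays between 625.5 and 649.8 FPKM. The sizes of the ratios and of the sum depend on the gene lengths behind the FPKM.

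By level over all 6 libraries the order was Gnai2 (204 FPKM), Gnas (202), Gna12 (76.7), Gnai3 (61.7), Gna11 (37.6), Gna13 (17.8), Gnaq (17.3), Gnai1 (11.9), Gnao1 (2.03) and Gnaz (1.93). Gnai2 and Gnas could not be ordered, since each was the higher one in 3 libraries, and Gna13 exceeded Gnaq in 4 of 6. Gnao1 exceeded Gnaz in 6 of 6 libraries by ratios of 1.02 to 1.11, but their ranges overlapped. The other neighbours were separated in every library without overlapping ranges. The gap between Gna12 and Gnai3 differed between the groups, with ratios of 1.33 to 1.44 in Control and 1.09 to 1.13 in ISRIB. Gna12 lay above 95% of the genes tested, and Gnao1 above 10.8%.

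The place of Gna12 in that order depended on the length used. The FPKM of Gna12 imply a gene length of 1903 bases, 55.7% of the 3416 exonic bases that GENCODE M21 gives it. When the same reads were divided by the GENCODE exonic length, Gna12 came to 42.7 reads per kilobase, scaled to library size as FPKM is. It then changed places with Gnai3 at 62.6. The reads were counted on gene models that are not given here, so a GENCODE length may not match the bases counted. For Gnaz the implied length of 5355 bases exceeds the 3612 exonic bases of GENCODE M21. The orders by GENCODE length therefore show how far the order depends on the divisor. Gnas had an implied length of 8379 bases, far above the 1185 coding bases of Gs alpha, and its level was 429 over the longest single transcript and 151 over all exonic bases. With either GENCODE length Gnas came first and Gnai2 second, and Gnaq passed Gna13 (19.3 and 18.1 over all exonic bases). Gnaz passed Gnao1 over all exonic bases, at 2.85 and 1.59, but not over the longest transcripts, at 2.93 and 3.18. As a divisor the length cancels in a ratio of ISRIB to Control for 1 gene. It does enter where the trend with gene length was removed. There the log2 difference was −0.32 for Gna12 and 0.20 for Gnas, beside −0.27 and 0.15 in the main fit.

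**Figure D4:**
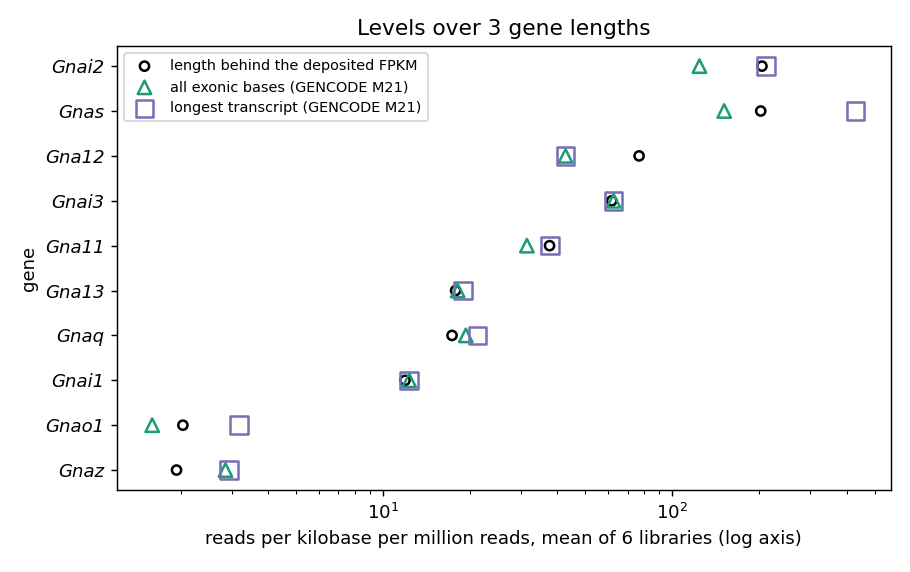
Mean level of each gene over the 6 libraries as reads per kilobase, scaled to library size as FPKM is (log axis), using the length behind the deposited FPKM (circles), all exonic bases of GENCODE M21 (triangles) or its longest transcript (squares). Gna12 is at 76.7 over the deposited length and 42.7 over both GENCODE lengths, and Gnas runs from 151 to 429. The reads are the same for each length and were counted on gene models not given here, so a GENCODE length may not match the bases counted.

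The 3′ end of Gna12 overlaps the protease gene Amz1, which is read from the opposite strand, over 456 exonic bases, and the sources do not give the strand setting of the counting. Amz1 itself had 9 to 21 reads in Control and 11 to 18 in ISRIB, against 4735 to 6078 for Gna12, so few reads were assigned to the neighbour in either group. For Gnas, 1469 exonic bases overlap Gm20721 and 988 overlap the antisense RNA Nespas. Neither symbol has a value here, and reads of those stretches cannot be assigned to a strand.

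The other alpha subunits were rare. Gna14, a Gq relative, measured 2.98, 3.22 and 3.23 FPKM in Control and 2.94, 3.35 and 3.03 in ISRIB, with overlapping groups (limma adjusted p = 0.940). Gna15, the Gq relative of blood cells, was at 0.0365 to 0.308 FPKM, and the olfactory Gnal at 0.275 to 0.428. The retinal Gnat1 and Gnat2 and the taste subunit Gnat3 had at most 21 reads in any library.

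The genes that work with alpha subunits were taken from 11 lists, in which 118 of 166 genes in the table reached the minimum for the test. By limma's adjusted p 0 of the 118 were called, as for all genes (0%), the lowest value being 0.0799. Unadjusted values under 0.05 were found for 29 of them (24.6%, against 16.4% of all genes). In voom on recovered reads 1 of the 118 was called, Nucb2, beside 0.929% of all genes, so nothing is read from this count. The ISRIB libraries lay all above Control for 9 and all below for 20, together 24.6% beside the 22.8% of all genes. The median log2 difference was −0.02.

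Beta and gamma subunits form the dimer that every alpha subunit binds. Of 4 beta genes tested 2 were higher and 2 lower, and of 10 gamma genes 5 and 5, with medians of 0.03 and 0.04 that became −0.02 and −0.01 after TPM rescaling. The level of the most abundant beta gene, Gnb1, was 142.1 ± 3.61 FPKM in Control libraries and 135.7 ± 4.26 FPKM in ISRIB libraries (log2 difference −0.07, limma adjusted p = 0.463). Gnb2 had 51.2 and 54.9 FPKM (0.10, limma adjusted p = 0.276), and Gng5 had 154.2 and 165.1 FPKM (0.10, limma adjusted p = 0.3). Both had all ISRIB libraries above Control.

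The exchange factor Arhgef12, which G alpha 12 and 13 bind directly, was at 12.99 ± 0.570 FPKM in Control libraries and 11.5 ± 0.446 in those with ISRIB (log2 difference −0.16, limma adjusted p = 0.223). Akap13, an anchoring protein that is also a RhoA exchange factor, had 11.1 and 9.49 FPKM (−0.21, limma adjusted p = 0.176), and these 2 had all ISRIB libraries below Control. The related exchange factors Arhgef11 and Arhgef1 had log2 differences of −0.09 and 0.13 with overlapping groups. Rhoa, the GTPase itself, was at 128.8 ± 3.96 and 128.2 ± 0.683 FPKM. Akap13 and Arhgef12 have long gene models, of 22871 and 19686 bases, and over all genes the log2 difference went down with length (Spearman's rank correlation −0.361 across genes, which are not independent replicates).

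Of the 14 tested genes listed as receptors for G12/13, 0 were called by limma's adjusted p. The list also holds S1pr1 (log2 difference −0.13), whose receptor couples to Gi. A lower mean in ISRIB was found for 11 of the 14, S1pr1 among them (48.2% of all genes were lower). The median log2 difference of the list was −0.13. The groups did not overlap for 3 lower genes and 1 higher, beside 12% and 10.8% of all genes. The sphingosine 1-phosphate receptor gene S1pr2 was at 15.4 ± 0.513 FPKM in Control libraries and 13.2 ± 0.799 in those with ISRIB (log2 difference −0.21, limma adjusted p = 0.152). The thrombin receptor F2r had 26.7 and 23.1 FPKM (−0.21, limma adjusted p = 0.216), and the endothelin receptor Ednra 42.8 and 39.0 FPKM (−0.14, limma adjusted p = 0.314). Ednra overlapped between the groups. The lysophosphatidic acid receptor Lpar1 was the higher gene without overlap, at 5.07 and 5.58 FPKM (0.12, limma adjusted p = 0.431). Several of these receptors are used by blood vessels, and of the 8 endothelial markers 8 were lower in ISRIB, with a median of −0.18, summed levels of 181 to 199 FPKM in Control and 152 to 179 in ISRIB, and none at 0. The groups did not overlap for 3 endothelial markers, Cdh5, Pecam1 and Kdr, and overlapped for the others. Cdh5, with the largest log2 difference of the 8 (−0.27), had 42.3 and 35.0 FPKM. Egfl7, the most abundant of the 8 and counted as lower, hardly differed (log2 difference −0.01). Of the 6 smooth muscle and pericyte markers 4 were lower (median −0.06), with Pdgfrb at 30.9 FPKM in Control and 24.5 in ISRIB, Acta2 the other way at 28.2 and 32.5, Myh11 at 6.24 and 6.57, and the sum at 74.3 to 80.3 in Control and 71.0 to 76.3 in ISRIB. The part of these markers in the receptor values or in Gna12 was not tested.

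Of 11 effectors of Gq tested, 0 were called by limma's adjusted p, and 9 had a lower mean in ISRIB, with a median log2 difference of −0.09. Of these 11 genes 10 have models longer than the median of 3549 bases over all genes, and with the length trend removed 8 were lower, with a median of −0.04. The IP3 receptor gene Itpr1, whose protein releases calcium from the endoplasmic reticulum, had 49.6 ± 2.85 FPKM in Control and 40.8 ± 2.74 in ISRIB (−0.28, limma adjusted p = 0.119). Itpr3 had 6.02 and 5.30 FPKM (−0.17, limma adjusted p = 0.271) and the kinase gene Prkcb 4.76 and 3.86 FPKM (−0.28, limma adjusted p = 0.258). Itpr1 and Itpr3 had no overlap between groups. For Gs and Gi, 10 of 14 effector genes were lower and 4 higher, with a median of −0.03, and 12 of the 14 have models longer than that of the median gene. The adenylyl cyclase gene Adcy3 had 11.3 ± 0.123 FPKM in Control and 10.4 ± 0.233 in ISRIB (−0.11, limma adjusted p = 0.310), and the protein kinase A genes Prkaca and Prkar1a had log2 differences of −0.01 and 0.01.

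Regulators that act on the alpha subunits went both ways. RGS proteins speed up GTP hydrolysis, mainly on Gi and Gq, and of 8 genes tested 6 were higher and 2 lower, with a median of 0.15. Rgs2, which acts on Gq, had 66.1 ± 6.42 FPKM in Control and 78.9 ± 9.22 in ISRIB with overlapping groups (0.25, limma adjusted p = 0.254). Rgs3 had 9.73 and 11.3 FPKM (0.20, limma adjusted p = 0.231), and Rgs12 had 6.58 and 5.80 FPKM (−0.17, limma adjusted p = 0.257). Of 17 chaperones, modulators, receptor kinases and arrestins 8 were higher and 9 lower. Nucb2, a calcium-binding protein that can bind Gi alpha, had 16.8 ± 0.141 FPKM in Control and 21.8 ± 1.22 in ISRIB (0.36, limma adjusted p = 0.0799), and Grk3, a receptor kinase, 3.23 ± 0.232 and 4.83 ± 0.927 FPKM (0.50, limma adjusted p = 0.126). Ric8a, the chaperone that folds Gq, Gi and G12/13 alpha subunits, was at 19.4 and 19.0 FPKM, and Ric8b, that of Gs, at 6.44 and 6.50 FPKM.

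Receptors of ovarian hormones and mediators gave 6 higher and 5 lower of 11 tested, with a median of 0.02 that became −0.03 after TPM rescaling. Oxtr, the oxytocin receptor, had 2.06 ± 0.623 FPKM in Control and 3.76 ± 1.4 in ISRIB (0.71, limma adjusted p = 0.217). Its groups overlapped, with Control replicate 3 at 2.77 FPKM and ISRIB replicate 1 at 2.71, and ISRIB replicate 3 was highest at 5.35. Ptger4, a prostaglandin E2 receptor coupled to Gs, had 2.71 ± 0.248 and 3.77 ± 0.780 FPKM (0.40, limma adjusted p = 0.221), and the Gi-coupled adenosine receptor Adora1 10.7 ± 2.23 and 7.88 ± 0.498 FPKM (−0.39, limma adjusted p = 0.220). Fshr, the receptor for follicle-stimulating hormone, was at 0.314 to 0.640 FPKM and below the minimum for the test.

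Genes driven by SRF with its MRTF cofactors, which RhoA activates through actin, gave 7 higher and 10 lower of 17, with a median of −0.03. Flna, a crosslinker of actin, had 101.9 ± 3.68 FPKM in Control and 89.9 ± 2.45 in ISRIB (−0.18, limma adjusted p = 0.121). The smooth muscle genes Tagln and Tpm1 were at 7.04 and 8.52 FPKM and at 69.7 and 77.4 FPKM (0.26 and 0.15, limma adjusted p = 0.201 and 0.229). In this list the groups did not overlap for 5 lower genes, Flna among them, and for 2 higher ones, Tagln and Tpm1. Over all genes tested these shares were 12% and 10.8%. Ccn2, a target shared with YAP, had 11.4 ± 6.73 and 15.8 ± 5.10 FPKM, with a spread wider than its difference.

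Across the 6 libraries the genes whose log2 level followed Gna12 most closely were Dcaf7 (Pearson r 0.9984), Eif4ebp2 (0.9942), Gse1 (0.9927), Arid1a (0.9919) and Hmcn1 (0.9908). They were picked from 12922 genes over 6 libraries in 2 groups, so each is a gene that was lower in ISRIB with little spread, and the values describe that and no more. Their log2 differences were −0.20, −0.36, −0.21, −0.20 and −0.51. Among the members the r with Gna12 was 0.933 for Gnaq and −0.966 for Gnas, whose groups also did not overlap, and 0.108 for Gna13, whose groups did.

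The libraries held 34474821 to 38002135 recovered reads. Oocyte, granulosa and stromal markers of the ovary were all found, with summed levels of 771 to 916, 541 to 713 and 1020 to 1210 FPKM over the 6 libraries. Of these 3 lists and those of surface epithelium, endothelium, smooth muscle and pericytes, immune cells and neurons, none had a marker at 0 in every library. Surface epithelial markers were lower for 6 of 6 (median −0.19) and immune markers for 5 of 7 tested (median −0.09), with summed levels that overlapped between the groups. Their part in the values of the alpha subunits was not tested.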

How the data were processed

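Total RNA of cultured mouse ovary was sequenced in 6 libraries, 3 per group, grouped by sample title. The authors deposited FPKM values per gene and library. Per the submitters' processing notes, fastp, HISAT2, HTSeq, DESeq2, R 3.2.0 and the build mm10 were used, with no roles given. The sources used here give neither annotation nor strand setting. Whole reads were recovered from the FPKM for 100.0% of genes (tolerance 0.01 read), giving 34474821 to 38002135 reads per library. These, divided by the library total and the FPKM, gave the implied gene lengths. Since FPKM are no counts, the fit was of log2(FPKM + 0.5) with limma 3.58.1 in R 4.3.3 (2 groups, empirical Bayes with intensity trend, two-sided, Benjamini-Hochberg) over the 12922 genes with a mean of at least 1 FPKM. The fold scale understates changes of low genes. The fit was tested on simulated data. Replicates differed beyond sampling noise (chi-square per gene 8.93 to 23.06). The members, lists and tests were chosen with earlier results of these data known. Named genes are the members, up to 3 genes per list with the smallest p and others whose role or value the text needs, some chosen after their values were seen. Alternatives were pseudocounts, filters, scalings, fit settings, the replicate block, voom, a length correction (loess span 0.5) and leaving out each library; voom with the length correction was added after seeing the data. The summary of 1 list is not reported here. Positions, sequences and exonic lengths came from GENCODE M21. Tables and figures used Python 3.11.15, pandas 2.3.3 and matplotlib 3.10.9.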

Additional observations from a re-analysis of the deposited data

How the results depend on the processing

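The log2 difference of Gna12 was below 0 in all 20 alternatives, from −0.32 to −0.26. It was −0.32 after TPM rescaling, after removal of the length trend and in voom with that correction, and −0.30 after quantile normalization. Leaving out single libraries gave −0.27 to −0.26. Gna12 minus the mean of the other members was −0.27, and −0.30 with a mean FPKM of at least 5 (7 other members), −0.28 after quantile normalization and −0.33 with the length correction in either fit. Gnas, Gnai1 and Gnai3 stayed above 0 and Gnaq, Gnao1 and Gnaz below 0 in all their alternatives. The sign of Gna11, Gna13 and Gnai2, all near 0, changed in some. The count of genes called was 0, and 8 with a mean FPKM of at least 5, 16 with array weights, 120 in voom and 23 in voom with the length correction. With the replicate block 11 genes were called, and 0 members. Libraries of the same replicate number were only weakly correlated (r of deviations −0.190, −0.091 and 0.192), and these values cannot show whether libraries were paired. Leaving out single libraries gave counts of 0 in each case. The causes were not tested. About 122 reads stand for 1 FPKM at median length in the shallowest library, so depth limits Gnao1 and Gnaz most.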
